A study of Xenopus laevis with 20 samples.

Results

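In Xenopus laevis embryos, 997 genomic sites carried a Smad1 peak from whole embryos and a p300 peak from gut explants but no β-catenin peak from the explants. They were selected on measured peak positions: a Smad1 peak belonged if it shared at least 1 bp with a peak of the explant p300 list and none with a peak of the explant β-catenin list. The 997 sites made up 12.5% (exact 95% interval 11.8 to 13.2) of the 7976 Smad1 peaks, among 43980 peaks in the 4 deposited lists. The overlaps with Smad1, explant p300 and β-catenin are therefore a description and are not tested below. Whole-embryo p300 was not used in the choice, though p300 in explants was.

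Smad1 is a transcription factor that bone morphogenetic protein (BMP) receptors activate by phosphorylation, after which it enters the nucleus with Smad4 and binds DNA. β-catenin accumulates when Wnt signalling restrains its destruction by GSK3, and it reaches DNA through partners such as TCF/LEF factors. p300 is a histone acetyltransferase recruited by many transcription factors and widely used to locate active enhancers. In the early vertebrate gut, BMP and Wnt signals act along the anterior-posterior axis, low in the future foregut and high in the future hindgut.

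Embryos were wild type and at Nieuwkoop-Faber stage 20. Chromatin immunoprecipitation and sequencing (ChIP-seq) gave 10 ChIP libraries and 10 input libraries, 1 in each group. Smad1 and p300 were each profiled in 1 whole-embryo library, for which the labels name no treatment. The Smad1 peak names, however, refer to a pooled experiment and the list's title to IDR, a comparison of replicates, and the labels do not settle this difference. The explants gave 4 libraries each of β-catenin and p300: foregut and hindgut, each with DMSO vehicle or with BIO, which inhibits GSK3 and so raises Wnt signalling, at 60 μM from stage 12 to stage 20. By the peak names, each explant list was called on foregut and hindgut, DMSO and BIO together, so a site cannot be assigned to a region of the gut or a treatment. The antibody against Smad1 is labelled Smad, and the peak names call it phosphorylated Smad1. Each list is 1 call set, read depth is unknown, and intervals below cover counting error only. Peaks at the same position need not come from the same cells. No gene or sequence is given for any site, because the build behind these positions is not stated in the material used.

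The sites were concentrated among the weaker Smad1 peaks. The score of a Smad1, β-catenin or explant p300 peak is 10 times the −log10 of its p-value, and the fold is ChIP signal over local background. Both are the authors' values. The Smad1 list was split by score into 10 bands of equal size. The sites held 1.76% (interval 0.964 to 2.93) of the band with the highest scores and 19.4% (interval 16.7 to 22.3) of that with the lowest. None of the 100 highest Smad1 scores was among them, and the best ranked 102 in the list. In all, 672 of the 997 (67.4%) lay in the lower-scoring part of the list, below its median. Smad1 peaks with neither explant p300 nor β-catenin rose as well, from 3.14% of the highest band to 41.1% of the lowest. The trend was therefore not particular to the sites. Smad1 peaks with both explant p300 and β-catenin went the other way, from 88.6% of the highest band to 22.8% of the lowest.

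**Figure D1:**
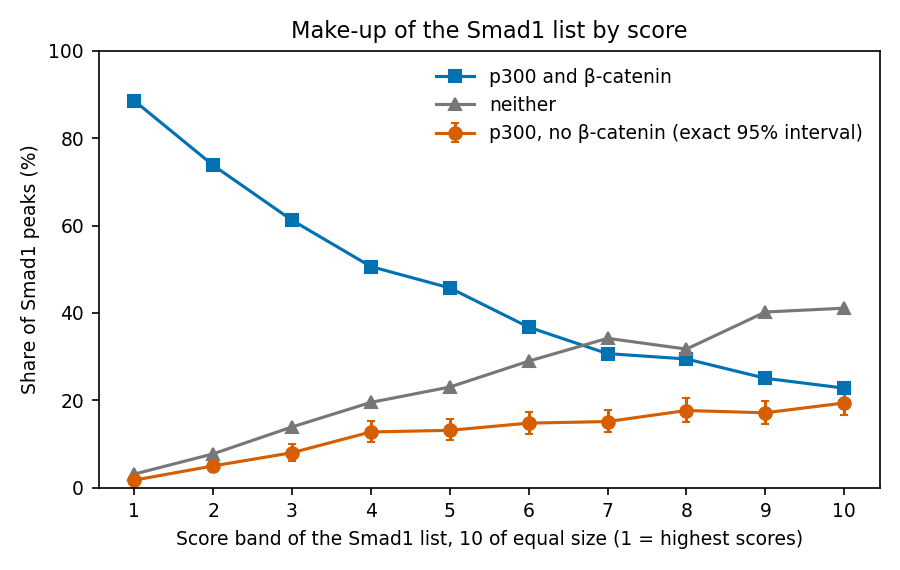
Share of Smad1 peaks (vertical axis, %) in each of 10 score bands of the Smad1 list (horizontal axis, 1 is the highest) that overlapped explant p300 without β-catenin, p300 and β-catenin, or neither. The bars are exact 95% intervals, and the share with p300 and no β-catenin runs from 1.76% to 19.4%.

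Smad1 enrichment at these sites was close to that of Smad1 peaks with no partner. The median Smad1 fold was 7.63 (quartiles 6.84 and 8.95), against 7.63 at the 1944 Smad1 peaks with neither β-catenin nor explant p300 and 8.02 at the 1328 with β-catenin alone. It was 9.53 (quartiles 7.59 and 12.9) at the 3707 Smad1 peaks with both. The folds ran from 2.62 to 24.9. The sites were also the narrowest of the 4 classes, with a median width of 340 bp against 357, 372.5 and 413 bp in the same order. These differences were not tested, since the scores helped to decide which peaks enter the lists. Width bears on the class too, as a wider peak can more easily overlap another.

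The explant p300 peaks at the sites stood between those at fully shared sites and those with no partner. Their median fold was 8.24 (quartiles 7.03 and 9.80), against 9.21 at Smad1 peaks that also had β-catenin. Over the explant p300 list, the 8259 peaks with neither Smad1 nor β-catenin had a median fold of 7.72, and the 2198 with β-catenin alone had 7.97. The 997 sites used 996 different p300 peaks, and none met more than 1. Of them, 109 (10.9%) had a p300 score in the top 10% of the p300 list, whereas 14 (1.40%) had a Smad1 score in the top 10% of the Smad1 list.

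The p300 and Smad1 peaks coincided closely, which in part follows from choosing the sites by overlap of these 2 lists. Their summits were a median of 29 bp apart (quartiles 13 and 56 bp), and 91.8% were within 100 bp of each other. The median distance was also 29 bp at Smad1 peaks with p300 and β-catenin. The Smad1 summit lay inside the p300 peak at 99.5% of the sites, and the shortest overlap was 95 bp. Only 31 sites had summits over 200 bp apart, the farthest at 598 bp. Yet the 2 folds hardly followed each other over the 997 sites (Pearson r of the log2 folds 0.09, Spearman rho 0.07). At the 3707 Smad1 peaks with p300 and β-catenin these were 0.26 and 0.21. Both are across sites of the same 2 lists and describe them, without a test. The quartiles of the Smad1 fold lay closer together at the sites (6.84 and 8.95) than at those peaks (7.59 and 12.9). Whether this narrower range lowered the correlations was not tested.

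**Figure D2:**
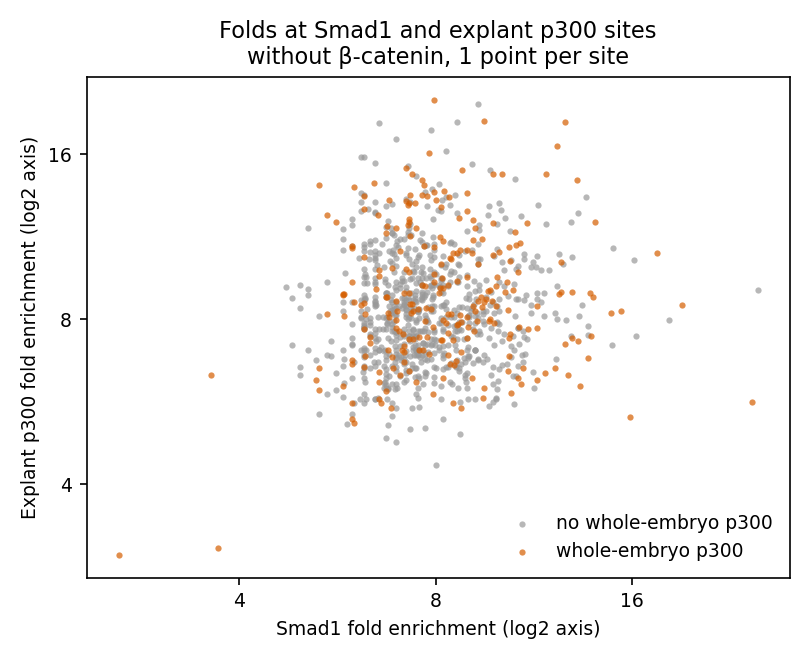
Smad1 fold (horizontal) against explant p300 fold (vertical) at the 997 sites, both on log2 axes, 1 point per site, coloured by overlap with whole-embryo p300. The points form 1 cloud with little slope (Spearman rho 0.07).

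The site with the highest Smad1 score lay on chromosome 5S from 118166499 to 118167093. It had 24.9-fold Smad1 and 9.06-fold p300 enrichment, and the nearest β-catenin peak was 6026 bp away. The next lay on chromosome 6S from 72513921 to 72514443, with 24.4-fold Smad1 but 5.67-fold p300 enrichment. It had no β-catenin peak within 136689 bp. The others of the 5 highest were on chromosome 5L from 137131512 to 137132156 (19.0-fold Smad1), on 6L from 92730389 to 92731065 (15.9-fold) and on 8S from 83455635 to 83455966 (17.4-fold). Whole-embryo p300 was present at 4 of these 5 sites and was missing at the first. It was present at 25% of all the sites. With the Smad1 list in 4 score bands of equal size, it was at 42.7% of the 82 sites in the highest, which holds these 5. Whether these 5 differ from the other sites of that band was not tested. At the site on 8S the Smad1 and explant p300 summits were 2 bp apart.

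Ranking by p300 gave different sites. The highest explant p300 score was on chromosome 1S from 126829020 to 126829468, where p300 was enriched 20.1-fold, rank 16 of the explant list, and Smad1 7.95-fold, rank 3123 of its list. The summits were 24 bp apart. On chromosome 5L from 129273071 to 129273495 p300 was enriched 15.4-fold with 9.11-fold Smad1, and on 4L from 119975091 to 119975522 15.0-fold with 8.78-fold Smad1. A site on chromosome 8L from 1107493 to 1108137 had strong enrichment of both, at 14.4-fold for p300 and 13.2-fold for Smad1, and lay 197 bp from a β-catenin peak. It carried whole-embryo p300 as well, at 9.86-fold. The remaining one of the 5, on Scaffold396 from 1558 to 1972, had 11.2-fold p300 and 9.14-fold Smad1 on a sequence with no β-catenin peak. Whole-embryo p300 was also present at the sites on 1S (5.91-fold), 4L (5.44-fold) and Scaffold396 (3.35-fold), and was missing at that on 5L. With Smad1 peaks that had explant p300 in 4 bands of the p300 score, it was at 45.2% of the 124 sites in the highest, which holds these 5. Whether these 5 differ from the other sites of that band was not tested.

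No Smad1 peak with explant p300 overlapped β-catenin by only a few bases. Among all Smad1 peaks with explant p300, an overlap with β-catenin was never shorter than 174 bp, and a gap to it never shorter than 61 bp. No peak lay between these values, so that requiring any overlap with β-catenin from 1 to 174 bp would have parted these peaks in the same way. Short overlaps are missing over the whole Smad1 list too, for a reason that is not known, so this says nothing of how firm the choice is. With summits within 200 bp as the criterion, the chosen sites were 13.4% of Smad1 peaks, and 16.5% of them had a β-catenin peak within 1 kb, against 8.22%. The 16.5% also counts chosen peaks that overlap a β-catenin peak whose summit is over 200 bp away, which the 1 bp rule leaves out. Just inside the choice were sites on chromosome 9_10S from 37186665 to 37187009 and from 37195445 to 37195670, with gaps of 61 and 92 bp. They were followed by 3L from 24544827 to 24545305 (153 bp), 4S from 22067518 to 22067908 (161 bp) and 9_10L from 113410894 to 113411209 (171 bp). At the site on 9_10L, the explant p300 peak covered the β-catenin peak whole, and its summit was 456 bp from the Smad1 summit. At the 9_10S site with the gap of 92 bp, the p300 peak overlapped the β-catenin peak in part. The 5 Smad1 peaks just outside overlapped β-catenin by 174 to 191 bp. These were narrow peaks, such as the one on chromosome 8L from 43132739 to 43132912, which at 174 bp was covered whole.

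**Figure D3:**
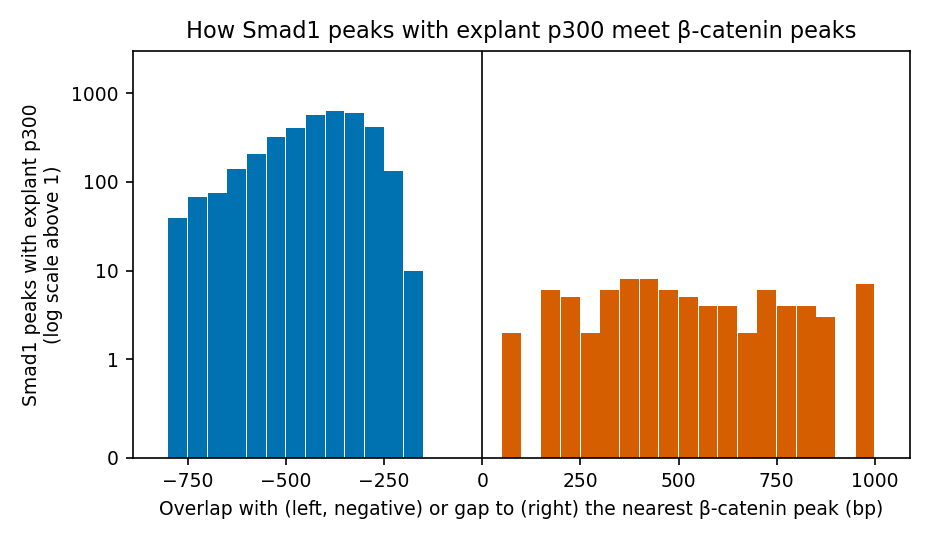
Number of Smad1 peaks with explant p300 (vertical axis, log scale above 1) by bp of overlap with the nearest β-catenin peak (left of the line, as negative values, to 800 bp) or gap to it (right, to 1000 bp). The bars to the right belong to the 997 sites, and none stands between an overlap of 174 bp and a gap of 61 bp.

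A β-catenin peak was often in the neighbourhood. It lay within 1 kb of 82 sites (8.22%, interval 6.59 to 10.1), within 5 kb of 300 (30.1%, interval 27.3 to 33.0) and within 50 kb of 762 (76.4%, interval 73.7 to 79.0). Smad1 peaks with neither partner had β-catenin within 5 kb in 24.5% (interval 22.6 to 26.5) and within 50 kb in 70.1% (interval 68.0 to 72.1). The p300 peak itself touched a β-catenin peak at 4 of the 997 sites. At the other end, the site on chromosome 2L from 22756584 to 22756826 was 707047 bp from the nearest β-catenin peak. Sites on 4L from 70590153 to 70590428 and on 8S from 86636906 to 86637240 were 638763 and 600104 bp away. Another 22 sites were on scaffolds without any β-catenin peak.

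The numbers in the β-catenin peak names bear on this absence. They rise along each chromosome and scaffold without exception and run to 195449, while the list holds 16303 peaks, 8.34% of that number, and ends at a −log10 p of 78.6. A number skipped between consecutive peaks thus marks an entry that is not in the list. Of the 997 sites, 963 lay between 2 β-catenin peaks, in 880 different stretches, and at least 1 number was skipped in each of the 880. Over all 15852 stretches between consecutive β-catenin peaks, 86.5% skipped a number. Long stretches skip more, so stretches of like length were set side by side. Peaks were placed in a stretch by their summits. Smad1 peaks that overlapped β-catenin were left out of this sorting, while explant p300 peaks that did so were counted. Below, a stretch without Smad1 is meant in this sense.

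The contrast was plain in short stretches. Between 2 and 5 kb, 0 of 21 stretches with a site skipped no number (exact upper limit 16.1%), whereas 493 of 1244 (39.6%, interval 36.9 to 42.4) stretches with neither Smad1 nor explant p300 did. Between 5 and 10 kb the counts were 0 of 54 (upper limit 6.60%) and 217 of 1151 (18.9%, interval 16.6 to 21.2). Between 10 and 20 kb they were 0 of 70 (upper limit 5.13%) and 114 of 1208 (9.44%, interval 7.85 to 11.2). The property was shared with other p300 and Smad1 sites. Stretches with a Smad1 peak that lacked both partners, and none of the 997, never went without a skip. The counts were 0 of 36, 0 of 62 and 0 of 90 in the same length classes, and 0 of 1402 over all lengths. Stretches with explant p300 and no Smad1 went without a skip in 1 of 76, 3 of 159 and 4 of 263. Over all lengths these were 10 of 3593 (0.278%, interval 0.134 to 0.511). Counts over all lengths include many stretches over 100 kb, where 2224 of 2225 with neither Smad1 nor explant p300 also skipped a number. Where in a stretch a skipped entry lay is not known, and whether weaker β-catenin enrichment underlies the 997 sites was not tested.

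**Figure D4:**
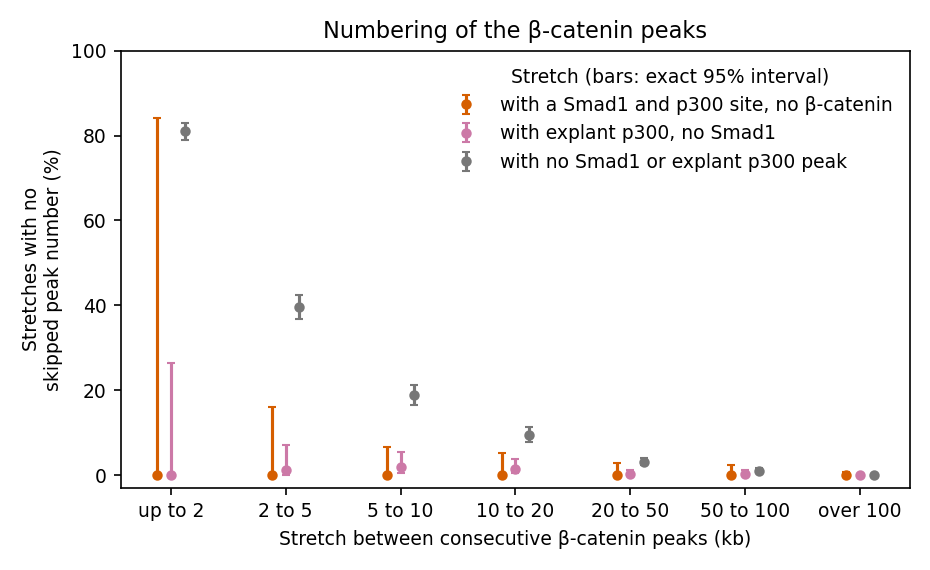
Share of stretches between consecutive β-catenin peaks with no skipped peak number (vertical axis, %) by length of the stretch (horizontal axis, kb), for stretches with a Smad1 and p300 site without β-catenin, with explant p300 and no Smad1, and with neither. Bars are exact 95% intervals, and the first group stands at 0 in every length class. Smad1 peaks that overlapped β-catenin were not counted in sorting the stretches.

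Whole-embryo p300, which the choice did not use, was found at 249 of the 997 sites (25%, interval 22.3 to 27.8), against 26.3% of all Smad1 peaks. The share differed from that of each other class of Smad1 peaks. It was 40.6% (interval 39.0 to 42.2) at the 3707 with explant p300 and β-catenin, 13.9% (interval 12 to 15.8) at the 1328 with β-catenin alone and 8.02% (interval 6.86 to 9.32) at the 1944 with neither. The odds ratio of the 997 sites was 0.487 (95% interval 0.416 to 0.570) against the class with both, 2.07 (interval 1.67 to 2.56) against β-catenin alone and 3.82 (interval 3.07 to 4.74) against neither. Fisher's exact tests, two-sided and adjusted over the 3 comparisons by Benjamini-Hochberg, gave p = 4.02e-20, 1.34e-11 and 4.65e-34. Peaks are not replicates, so the tests describe the lists. The 2 classes without explant p300 were set apart from the sites by p300 itself. The higher share of whole-embryo p300 at the sites than in these 2 classes is thus not independent of the choice.

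The sites had a lower share than fully shared sites in each band of either score, though in several bands the intervals overlapped. The Smad1 list was also split into 4 score bands of equal size. Whole-embryo p300 was at 42.7% of the 82 sites in the highest band against 56.8% of the class with β-catenin, and at 31.7% against 34.1%, 21.7% against 24.7% and 19.3% against 23.9% in the following bands. Within these bands, a setting chosen after seeing the data, the pooled odds ratio against the class with both was 0.792 (interval 0.668 to 0.939, Mantel-Haenszel chi-square test, p = 0.00709). By bands of the explant p300 score the shares were 45.2% against 63.8% in the highest, then 29.7% against 40.3%, 21.2% against 30.1% and 18.4% against 22.1%. Here the intervals overlapped in the lowest band only. Within 4 bands each of the Smad1 and the explant p300 score, also chosen after seeing the data, the pooled odds ratio was 0.926 (interval 0.777 to 1.10, Mantel-Haenszel chi-square test, p = 0.386). The difference from fully shared sites thus passed the threshold within bands of the Smad1 score and did not within bands of both scores. Among Smad1 peaks of middle width, without score bands, the odds ratio was 0.644 (interval 0.517 to 0.801). The part that peak width plays was not tested. Within the 4 Smad1 bands, the odds ratios were 2.43 (interval 1.95 to 3.03) against β-catenin alone and 3.77 (interval 3.03 to 4.70) against neither. Both of these classes lack explant p300 by definition, so these values are not independent of the choice either.

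**Figure D5:**
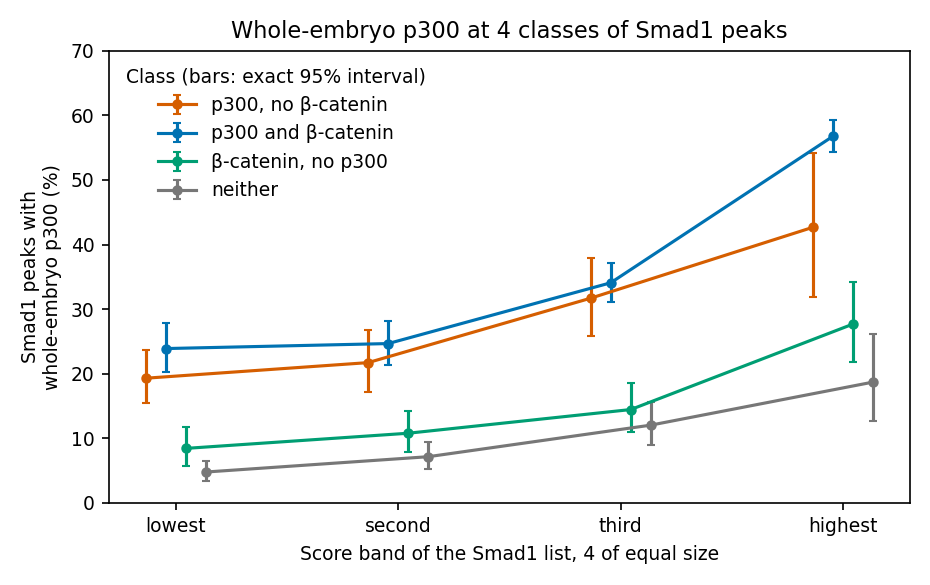
Share of Smad1 peaks with whole-embryo p300 (vertical axis, %) in 4 score bands of the Smad1 list (horizontal axis), for the 4 classes of Smad1 peaks, with exact 95% intervals as bars. The sites with p300 and no β-catenin run from 19.3% in the lowest to 42.7% in the highest band, above the 2 classes without explant p300 in each band.

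The explant p300 list was also divided by overlap with Smad1 and β-catenin. Of the 996 explant p300 peaks at the sites, 25.2% (interval 22.5 to 28.0) overlapped whole-embryo p300. The share was 40.7% (interval 39.1 to 42.3) of explant p300 peaks with Smad1 and β-catenin, 12.5% (interval 11.2 to 14.0) with β-catenin but no Smad1 and 8.02% (interval 7.44 to 8.62) with neither. The shares at the sites and with Smad1 and β-catenin count nearly the same overlaps as above. The others are of p300 peaks without Smad1, which are different classes from those above. These shares were not tested. The explant and whole-embryo lists differ in tissue, length, width and threshold, which cannot be told apart here.

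Sites with whole-embryo p300 were somewhat stronger in the other lists. Their median Smad1 fold was 8.15 against 7.51 at the 748 sites without it, and their median explant p300 fold 8.56 against 8.11. They were also wider, with a median of 374 bp against 331 bp. A wider peak can more easily meet another, so strength and width cannot be told apart here. Whole-embryo p300 itself was enriched a median of 5.44-fold at the 249 sites, against 5.41-fold over its list, and its summit was a median of 49 bp from the Smad1 summit and 46 bp from the explant p300 summit. Of the 748 sites without it, 21 (2.81%) had a whole-embryo p300 peak within 1 kb. The highest whole-embryo p300 score at a site was on chromosome 5L from 43139714 to 43140073, with 9.47-fold whole-embryo p300, 7.03-fold explant p300 and 7.66-fold Smad1 enrichment. Next to it in score stood the site on 8L described above and one on Scaffold197414 from 1 to 195, where Smad1 was enriched 3.72-fold and explant p300 3.06-fold, near the lowest folds of the set. The scaffold site was 1 of 5 sites that started at the first base of a scaffold, where a peak can be cut off. The share with whole-embryo p300 was 28% (interval 23.0 to 33.4) at sites up to 5 kb from β-catenin, 25.5% (interval 21.6 to 29.8) from 5 to 50 kb and 20% (interval 15.1 to 25.7) farther away, with overlapping intervals.

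The sites were spread over the genome. Xenopus laevis is allotetraploid and carries its chromosomes as long (L) and short (S) homoeologues. Of the 939 sites on named chromosomes, 557 (59.3%, interval 56.1 to 62.5) were on L copies, and the other 3 classes of Smad1 peaks had 58.1% to 60.4% there. By chromosome, they made up from 10.5% of the Smad1 peaks (6S, 34 of 325, interval 7.35 to 14.3) to 16.4% (8S, 50 of 305, interval 12.4 to 21.0), and the interval of each of the 18 chromosomes held the overall 12.5%. The 58 sites on unplaced scaffolds were 5.82% of the set (interval 4.45 to 7.46), and 4.73% to 5.42% of the other classes lay there.

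Most of the sites had no other site of their kind nearby. Another of the 997 lay within 50 kb of 226 sites (22.7%, interval 20.1 to 25.4), whereas 465 (46.6%, interval 43.5 to 49.8) had a Smad1 peak with both p300 and β-catenin that near. The class with both is the larger, with 3707 peaks, and a larger class tends to have more peaks near any site. A peak of that class lay within 50 kb of 38.0% (interval 35.8 to 40.2) of Smad1 peaks with neither partner. For Smad1 peaks with β-catenin alone the share was 47.8% (interval 45.1 to 50.5). How far the difference follows from number was not tested. Another peak of its own class lay within 50 kb of 58.1% of the peaks with both, 32.6% of those with β-catenin alone and 33.2% of those with neither, classes that are also larger than 997. Linked at distances of up to 50 kb, 771 sites stood alone, 92 groups had 2 sites and 11 had 3. The largest, of 5 sites, was on chromosome 6S from 14533211 to 14580725. Its Smad1 folds ran from 6.36 to 9.74 and its explant p300 folds from 6.15 to 9.38, and 2 β-catenin peaks lay between its sites. A group of 4 on chromosome 9_10S from 37186665 to 37247949 held 5 β-catenin peaks and the 2 sites with the smallest gaps to β-catenin. The tightest group of 3 spanned 3.88 kb on chromosome 5L from 38803319 to 38807199, with no β-catenin peak inside and with p300 folds of 5.37 to 10.9. Whole-embryo p300 was at none of these 12 sites, against 25% of all the sites. By chromosome, it was at 10 of the 34 sites on 6S, 3 of the 43 on 9_10S and 13 of the 62 on 5L. These 3 groups were picked by size and length, and whether grouped sites in general differ in whole-embryo p300 was not tested.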

How the data were processed

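ChIP-seq of 20 libraries of Xenopus laevis embryos and explants had been reduced by the authors to 4 peak lists. The submitters' processing notes name FastQC, Trimmomatic, Bowtie2, Picard, SAMtools and MACS2, without versions or roles, and no genome build is named there. The 3 lists other than whole-embryo p300 are titled IDR (irreproducible discovery rate), with no settings given. Each deposited peak has a score, a fold enrichment as a ratio of ChIP over background, and the −log10 of a p-value and a q-value. Read depth is unknown.

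Intervals repeated for several summits were kept once with the highest score, which left 4555 of 4727 lines of the whole-embryo p300 list, and the 14 lines without a summit were given the midpoint. Overlap means at least 1 bp. A Smad1 or p300 pair is the overlapping pair with the nearest summits. Shares have exact (Clopper-Pearson) 95% intervals. Whole-embryo p300 was compared by two-sided Fisher's exact test (SciPy 1.17.1), adjusted over 3 comparisons, with a threshold of 0.05, and stratified odds ratios by the Mantel-Haenszel method (statsmodels 0.14.6). The classification returned each class of simulated lists as made. The simulated peaks were well apart and had partners of equal width, so short overlaps and close neighbours were not covered.

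The sites, classes and tests were chosen with earlier results of these data known. Sites were named by rule: the 5 highest Smad1 and explant p300 scores, the 3 highest whole-embryo p300 scores, the 5 on each side of the β-catenin limit, the 3 farthest from β-catenin and the 3 largest groups. Among groups of equal size the shortest was taken, a choice made after seeing the data. The alternatives were another overlap rule, the higher-scoring part of the lists, named chromosomes, middle widths and a 1 kb margin to β-catenin. The stratified odds ratios, the peak numbers and the edges of overlaps were added after seeing the data.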

Additional observations from a re-analysis of the deposited data

How the results depend on the processing

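Of 66 alternative values, 52 led to the same call or, for shares, moved by less than the counting interval, and none reversed. The odds ratio for whole-embryo p300 against Smad1 peaks with explant p300 and β-catenin no longer passed the threshold within 4 bands each of the Smad1 and explant p300 scores (0.926), and still passed it within 4 bands of the Smad1 score alone (0.792, p = 0.00709 by Mantel-Haenszel chi-square test). Both settings were added after seeing the data. Requiring summits within 200 bp moved the share of Smad1 peaks chosen from 12.5% to 13.4%, and that of the sites with β-catenin within 1 kb from 8.22% to 16.5%. The 16.5% includes sites that overlap β-catenin with summits over 200 bp apart, so the 8.22% and 16.5% are not of like sites. With the higher-scoring 50% of each list, the sites were 15.1% of Smad1 peaks, and 22.1% had whole-embryo p300. Of them, 5.14% had β-catenin within 1 kb and 17.7% had another site within 50 kb. This setting also cuts the β-catenin list and both p300 lists. A Smad1 peak on a lower-scoring β-catenin peak then counts as lacking β-catenin, and lower-scoring whole-embryo p300 peaks cannot be met. With the higher-scoring 50% of the Smad1 list alone, the sites were 8.15% of Smad1 peaks, 34.5% had whole-embryo p300 and 8.92% had another site within 50 kb. The 3988 higher-scoring Smad1 peaks gave 603 sites with each list cut and 325 with the Smad1 list alone cut. For Smad1 peaks of middle width, 28.7% had whole-embryo p300, the median summit distance was 33 bp and 12.2% had another site within 50 kb. In that setting the odds ratio against Smad1 peaks with explant p300 and β-catenin was 0.644 (interval 0.517 to 0.801). It ran from 0.476 to 0.570 in the other settings without score bands. Fewer peaks enter the settings by score and by width, which tends to lower the share with a neighbour. How much of each move follows from the setting itself was not tested. A margin of 1 kb to β-catenin left 915 sites, 11.5% of Smad1 peaks. The labels give 1 ChIP library in each group and the lists hold no values per library, so no replicate could be left out, and unknown depth limits what the absence of a peak can show.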

Other observations

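Edges of overlaps were examined after seeing the data. Over all 5035 overlaps of a Smad1 peak with β-catenin, the shortest was 168 bp, and 77.5% covered the Smad1 peak whole. No overlap was under 150 bp. For the 4704 overlaps of Smad1 with explant p300 there were 2 under 150 bp, the shortest of 95 bp, and for the 5895 of explant p300 with β-catenin there were 6, the shortest of 19 bp. Overlaps under 150 bp were frequent between Smad1 and the whole-embryo p300 peaks, where the shortest overlap was 1 bp and 1135 of 2094 were under 150 bp. The whole-embryo p300 peaks had a median width of 118 bp, however, so many of them could not reach 150 bp. The median widths were 383 bp for Smad1, 516 bp for β-catenin and 411 bp for explant p300. Overlaps that covered the first peak in part made up 22.5% for Smad1 with β-catenin, 49.4% for Smad1 with explant p300 and 45.3% for explant p300 with β-catenin.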
